A study of Homo sapiens with 4 samples.

Results

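The mitochondrial ribosomal protein genes are described here across cells with and without a targeted TXNDC9 gene. They were taken as every gene whose symbol was MRPL or MRPS followed by a number, with or without a final letter A to C. This gave 78 genes, 49 MRPL and 29 MRPS, of the 57979 genes with values in the deposited table. All 78 had an average level above 1 FPKM (a fragment count divided by transcript length and by the library's mapped fragments) and were among the 13246 genes tested. Polyadenylated RNA was sequenced in 4 libraries of cells labelled HepG2, a human liver cancer line, grown in DMEM with serum. The 2 TXNDC9-KO libraries came from cells given a lentivirus with Cas9 and either of 2 guides against TXNDC9, and the 2 others from wild-type (WT) cells. For its western blots the study describes sorted infected cells, with the vector alone as control, and whether the sequenced cells were sorted likewise, grown from a clone or, in WT, given the vector is not given in the sources used here. A legend of the study speaks of independent experiments for RNA-seq values, yet their number does not match the 2 libraries in each condition here. Which libraries came from separate cultures is thus not settled, and the p-values below may measure only technical spread between these libraries. The study compared the 2 conditions to find the genes whose transcripts depend on TXNDC9, a thioredoxin-domain protein linked to protein folding.

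Mitochondrial ribosomes translate the few proteins that mitochondrial DNA encodes, all of them subunits of the respiratory chain and ATP synthase. Their ribosomal RNAs are made inside the organelle, whereas every protein of the particle is encoded in the nucleus, made in the cytosol and imported. MRPL genes encode proteins of the large subunit, which joins amino acids, and MRPS genes those of the small subunit, which reads the messenger RNA. Some of these proteins have a counterpart in bacterial ribosomes and others occur only in mitochondria. In liver and liver-derived cells, as in other tissues rich in mitochondria, the particle is needed for oxidative metabolism.

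The cell label was checked first against 8 genes that define hepatocytes and HepG2 cells, and these were at or near 0. ALB, AFP, APOA1, APOB, TTR, SERPINA1, HNF4A and FGB had at most 0.449 FPKM in any library, the level of AFP in WT replicate 2, and 0 of 8 passed the filter on low values. Of 6 markers of cells that a hepatocyte line should not hold, 3 did pass. COL1A1 (fibroblast collagen) had 31.5 and 22.8 FPKM in WT and 20.7 and 17.5 FPKM in TXNDC9-KO libraries. COL3A1 had 19.4 and 24.0 FPKM against 13.4 and 13.1 FPKM, and CD68, a lysosomal marker of macrophages, 3.38 and 5.16 FPKM against 5.77 and 6.90 FPKM. PTPRC, PECAM1 and KRT5 stayed at or below 0.261 FPKM. The liver markers thus go against the label in both conditions, and the cells are called by their labels below. TXNDC9 itself had 35.1 and 37.3 FPKM in WT and 21.9 and 27.6 FPKM in TXNDC9-KO libraries, a log2 fold change of −0.55 ± 0.14 (SE) with an adjusted p of 0.0145 by limma, which did not pass the threshold and had the opposite sign, 0.12, after rescaling to equal library sums. A transcript that carries a small deletion can still be counted, so this level does not check the protein. The summed FPKM of all genes was 805816 and 971102 in WT but 535973 and 568279 in TXNDC9-KO libraries, so the main counts and medians are also given after every library was rescaled to the same sum, as in transcript shares (TPM).

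Mitochondrial ribosomal protein transcripts were lower in TXNDC9-KO than in WT libraries as a family, and none was called higher. Their summed level was 10027 and 12494 FPKM in WT and 5374 and 5743 FPKM in TXNDC9-KO libraries, and their median level was 112 and 142 FPKM against 58.1 and 59.1 FPKM. As a share of all FPKM in the library they made up 1.24% and 1.29% in WT and 1.003% and 1.01% in TXNDC9-KO libraries. The groups did not overlap in any of these 3 measures. The share fell to 0.795 of its WT mean, from 1.27% ± 0.03 to 1.01% ± 0.0057 (SD, n = 2 each), whereas the sum fell to 0.494 of its WT mean, which holds the lower total of the TXNDC9-KO libraries as well. In bulk RNA, fewer cells of a kind and less RNA per cell cannot be told apart.

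**Figure D1:**
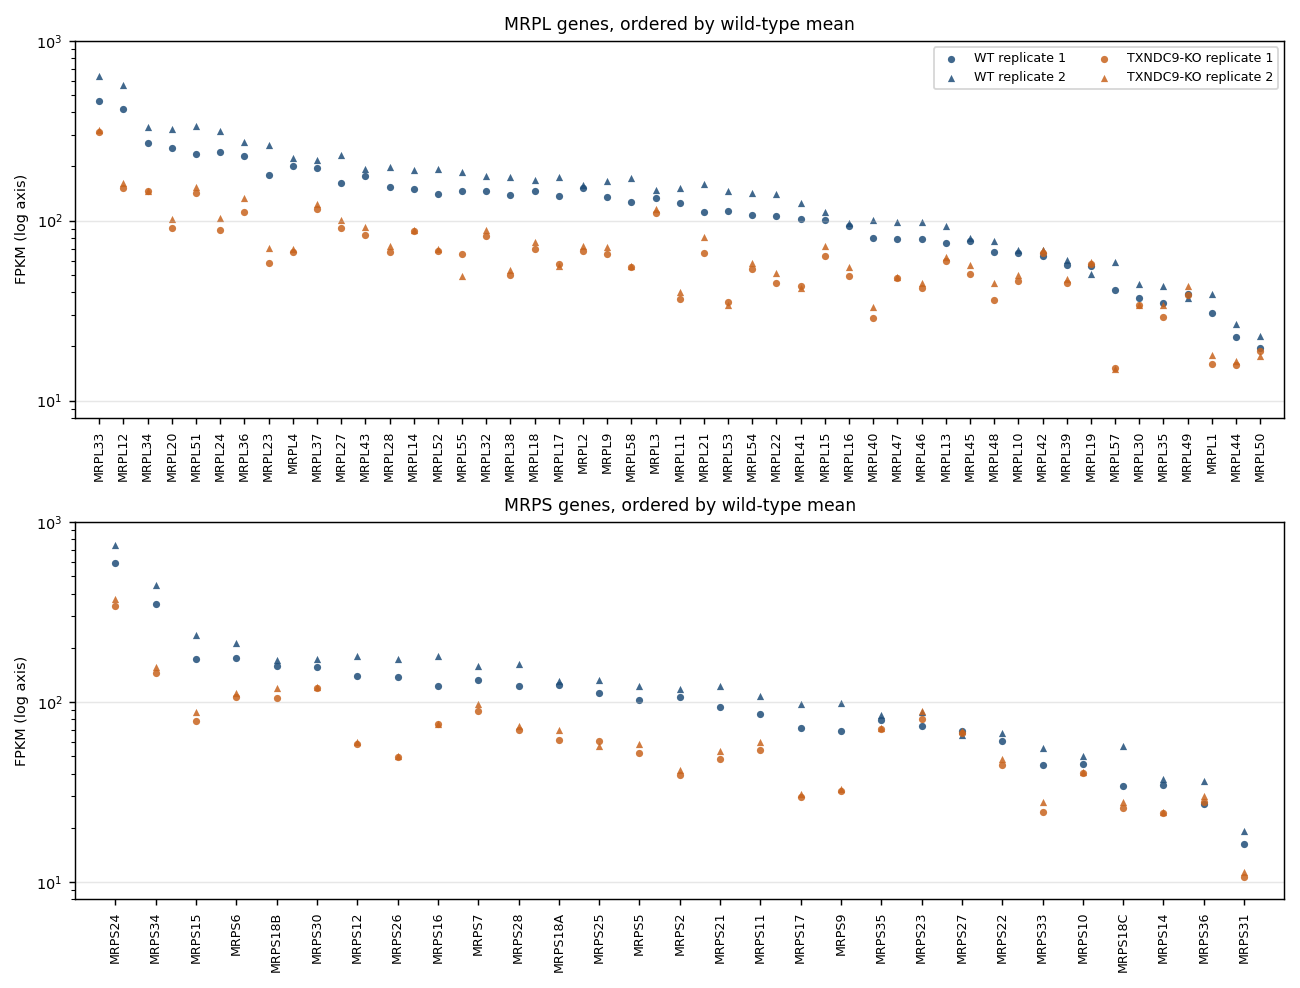
Level of each mitochondrial ribosomal protein gene in FPKM on a log axis, MRPL genes above and MRPS genes below, in order of the WT mean. Blue points are the 2 WT libraries and orange points the 2 TXNDC9-KO libraries. In 72 of 78 genes both orange points lie below both blue points, beside 45.9% of all tested genes. In TPM, which is not drawn, they do so in 51 of 78, beside 22.2% of all tested genes.

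A gene was called when limma on log2(FPKM + 0.1) gave an adjusted p under 0.01 and the means differed by at least 2-fold. By this rule 37 of 78 genes (47.4%) were lower in TXNDC9-KO and 0 were higher, beside 15.3% lower and 14.2% higher among all tested genes. Of the 78 genes, 59 fell at an adjusted p under 0.01 whatever the fold and 0 rose, beside 27.1% and 23.7% of all tested genes. Both TXNDC9-KO values lay below both WT values in 72 genes, above them in MRPL19 alone, and the values overlapped in 5, beside 45.9% below and 40.1% above among all tested genes. With 2 libraries against 2, a single gene's exact permutation p cannot go below 0.333, and the calls rest on a spread that limma shares across genes. The median log2 fold change was −0.97 for the family and −0.09 for all tested genes, and the family's quartiles were −1.35 and −0.57. Centring every library on the median of the tested genes gave 48 genes lower and 0 higher, beside 19.6% and 11% of all tested genes, with a family median of −1.12. The direction of a single gene depended on the scale. TPM moved the median of all genes by 0.68, so that the family's median was −0.29, with 54 genes negative and 24 positive, while that of all tested genes was 0.59. In TPM 4 genes were called lower and 0 higher, beside 3.37% and 33.1% of all tested genes, and both TXNDC9-KO values lay below both WT values in 51 and above them in 20, beside 22.2% and 64.8%. Relative to the median of all tested genes the family was lower by nearly the same amount on both scales, −0.88 in FPKM and −0.88 in TPM, and 73 of 78 genes lay below that median on each. This follows from the rescaling, which moves every gene by nearly the same amount, and is not a separate check. WT replicate 2 exceeded WT replicate 1 in 75 of the 78 genes. The median excess was 0.30 on the log2 scale, beside 0.09 over all tested genes, and the size of the family's fall moved with it. Without WT replicate 1 the family's median log2 fold change was −1.15, beside −0.13 over all tested genes. Without WT replicate 2 it was −0.78, beside −0.04. Without either TXNDC9-KO library limma called 0 of the 78 genes (smallest adjusted p 0.0237 without replicate 1 and 0.0232 without replicate 2, with 54 and 61 genes at an unadjusted p under 0.05) and 0 of all tested genes, while 32 and 42 genes were still at least 2-fold lower by value.

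**Figure D2:**
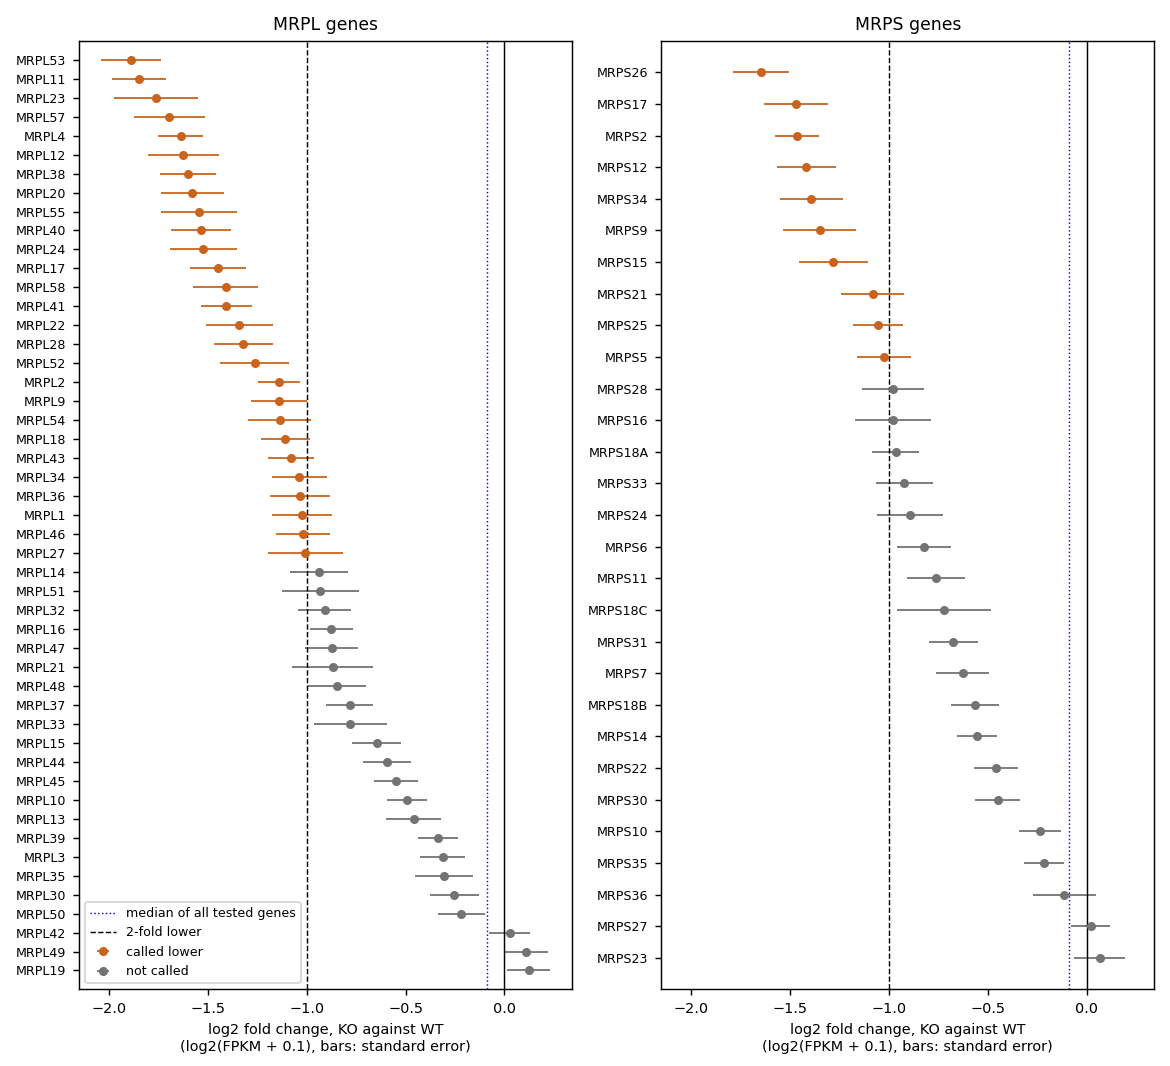
Log2 fold change of each gene, TXNDC9-KO against WT, on the log2(FPKM + 0.1) scale, with its standard error from limma, for MRPL genes on the left and MRPS genes on the right. Orange genes passed the threshold (27 MRPL and 10 MRPS), the dashed line marks a 2-fold fall and the dotted line the median of all tested genes, −0.09. After rescaling to TPM every point moves to the right by about 0.68, and 24 of the 78 genes are then above 0.

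Promoters are shown for the genes at both ends of the order of log2 fold changes, MRPL53 (−1.89) and MRPL19 (0.12) among MRPL genes and MRPS26 (−1.65) and MRPS23 (0.07) among MRPS genes. MRPL19 and MRPS23 did not pass the test, and after the correction for length and GC content given below the values were −1.27 and −0.93 for the first pair and −0.68 and −0.56 for the second, so the contrast depends on the processing. Each runs from 170 bases before to 30 bases after the RefSeq start site of GRCh38.p14, 5′ to 3′ on the gene's strand. Capitals mark matches, on either strand, to 4 short words searched for: the E-box CACGTG that MYC and MAX bind, the core GCATGCG of the NRF1 site, the core CCGGAAG of ETS factors such as GABPA, and the core ATGGCGG of the YY1 site.
MRPL53 (chr2:74472651-74472850, minus strand): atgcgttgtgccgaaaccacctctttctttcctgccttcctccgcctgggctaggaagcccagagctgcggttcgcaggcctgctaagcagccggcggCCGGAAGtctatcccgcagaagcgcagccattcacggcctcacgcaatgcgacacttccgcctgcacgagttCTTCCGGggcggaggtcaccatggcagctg
MRPL19 (chr2:75646613-75646812, plus strand): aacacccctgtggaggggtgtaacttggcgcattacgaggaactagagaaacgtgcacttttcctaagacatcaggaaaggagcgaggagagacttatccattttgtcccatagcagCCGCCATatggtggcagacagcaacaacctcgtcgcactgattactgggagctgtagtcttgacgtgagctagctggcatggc
MRPS26 (chr20:3045882-3046081, plus strand): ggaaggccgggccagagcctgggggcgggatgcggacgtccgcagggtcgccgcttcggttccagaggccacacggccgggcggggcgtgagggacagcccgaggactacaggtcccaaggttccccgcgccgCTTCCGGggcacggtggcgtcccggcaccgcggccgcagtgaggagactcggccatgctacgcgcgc
MRPS23 (chr17:57850015-57850214, minus strand): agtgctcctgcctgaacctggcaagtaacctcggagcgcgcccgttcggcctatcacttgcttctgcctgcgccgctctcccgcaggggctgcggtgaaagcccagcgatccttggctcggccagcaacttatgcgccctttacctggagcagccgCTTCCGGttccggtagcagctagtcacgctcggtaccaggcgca
MRPL53 held the ETS word at 2 positions, 72 bases before the start and at the start itself. MRPL19 held the YY1 word 53 bases before the start. MRPS26 and MRPS23, which stood at opposite ends among the MRPS genes, both held the ETS word, 37 and 14 bases before the start. Over the longer window of 250 bases before to 50 after the start, RefSeq gave a promoter for 69 of the 78 genes, and where a gene had several, the one nearest to the GENCODE start was used. The ETS word was in 30 of the 69 (43.5%), beside 21.1% of the promoters of tested genes and 10.9% of all 27305 promoters. The YY1 word was in 24 (34.8%), beside 11.8% and 5.94%. NRF1's word was in 7 (10.1%), beside 7.06% and 4.22%, and the E-box in 5 (7.25%), beside 10.6% and 7.42%. At least 1 of the ETS and YY1 words was in 47 promoters, and none of the 4 words in 20. Genes called lower and genes not called carried them at similar shares: 15 of 35 against 15 of 34 for the ETS word, 11 against 13 for YY1, 4 against 3 for NRF1 and 2 against 3 for the E-box. A match is a description of the letters and not a bound site.

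Among the MRPL genes, 27 of 49 (55.1%) were called lower, beside 15.3% of all tested genes. MRPL53, which occurs only in mitochondria, had 113 and 147 FPKM in WT and 35.3 and 33.9 FPKM in TXNDC9-KO libraries, 3.74-fold lower (log2 fold change −1.89 ± 0.15 SE, limma adjusted p 0.000538). The read origin of this gene is uncertain, since 72.8% of its exon bases are also exon bases of CCDC142 on the same strand, whose own level was 5.87 and 4.48 FPKM in WT and 8.03 and 8.33 FPKM in TXNDC9-KO libraries. MRPL11, at the base of the stalk that recruits translation factors, had 125 and 153 FPKM in WT and 36.5 and 40.1 FPKM in TXNDC9-KO libraries (log2 fold change −1.85 ± 0.14, adjusted p 0.00053 by limma). MRPL12, the stalk protein itself and the second most abundant MRPL transcript, fell from 415 and 568 FPKM to 152 and 163 FPKM, a log2 fold change of −1.62 ± 0.18. Its exons share 69.5% of their bases with another gene on the same strand, which was listed at no more than 1.23 FPKM. In both genes the TXNDC9-KO libraries lay far below the WT libraries, but MRPL12 was not called in TPM (−0.94) or after the length and GC correction (−0.63). MRPL10, which anchors the stalk, had 66.2 and 68.7 FPKM against 46.1 and 49.8 FPKM (−0.49 ± 0.10, and 0.19 in TPM) and was not called, so the stalk genes did not share one size of change.

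The other MRPL genes among the 5 largest falls were MRPL23, MRPL57 and MRPL4. MRPL23, at the exit of the tunnel through which the new chain leaves, had 179 and 263 FPKM in WT and 57.9 and 70.3 FPKM in TXNDC9-KO libraries (log2 fold change −1.76 ± 0.21). MRPL4, which lines the tunnel, had 201 and 224 FPKM against 66.5 and 69.7 FPKM (−1.64 ± 0.12). MRPL39, MRPL44 and MRPL45, which also lie at the tunnel exit, had −0.33, −0.59 and −0.55 and were not called. MRPL57, found only in mitochondria, had 41.1 and 58.9 FPKM against 15.2 and 15.0 FPKM (−1.70 ± 0.18). In MRPL23, MRPL4 and MRPL57 both TXNDC9-KO libraries lay below both WT libraries, and WT replicate 2 was the higher WT library. MRPL53, MRPL11, MRPL23 and MRPL57 were the 4 genes still called lower in TPM. MRPL27, a protein near the site of peptide bond formation, lay just inside the threshold with 162 and 231 FPKM in WT and 91.4 and 101 FPKM in TXNDC9-KO libraries (−1.01 ± 0.19, adjusted p 0.00513 by limma).

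MRPL33, the most abundant MRPL transcript, was not called. It had 461 and 633 FPKM in WT and 311 and 318 FPKM in TXNDC9-KO libraries, and its log2 fold change of −0.78 ± 0.19 had an adjusted p of 0.012 by limma. MRPL19 stood at the other end of the family, with 56.2 and 50.3 FPKM in WT and 57.2 and 58.6 FPKM in TXNDC9-KO libraries (0.12 ± 0.11, limma adjusted p 0.35). Both TXNDC9-KO values lay above both WT values, by less than the gap between the WT libraries. MRPL49 had 38.9 and 37.0 FPKM against 38.7 and 43.4 FPKM (0.11 ± 0.11), and MRPL42 63.9 and 68.8 FPKM against 66.3 and 68.8 FPKM (0.03 ± 0.10), so the conditions overlapped in both. MRPL19 and MRPL49 turned negative, −0.02 and −0.03, when libraries were centred on the median of the tested genes, and MRPL42 was −0.12. In TPM these 3 genes were higher in TXNDC9-KO libraries, by 0.80, 0.79 and 0.71 on the log2 scale, and none reached a 2-fold difference.

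Of the 29 MRPS genes, 10 (34.5%) were called lower, beside 15.3% of all tested genes, MRPS12 of the decoding centre among them. MRPS26, found only in mitochondria, had 138 and 174 FPKM in WT and 49.4 and 49.8 FPKM in TXNDC9-KO libraries, 3.15-fold lower (log2 fold change −1.65 ± 0.14, limma adjusted p 0.000572). MRPS12, which helps to check the pairing of codon and anticodon, had 139 and 179 FPKM against 58.2 and 59.7 FPKM (−1.42 ± 0.15). MRPS17, an RNA-binding protein with a bacterial counterpart, had 72.1 and 97.8 FPKM against 29.6 and 30.9 FPKM (−1.47 ± 0.16). All 3 were separated by condition, and in each the 2 TXNDC9-KO libraries nearly coincided. MRPS2, another protein with a bacterial counterpart, had 106 and 118 FPKM in WT and 39.1 and 42.0 FPKM in TXNDC9-KO libraries (−1.46 ± 0.11). MRPS34, needed for a stable small subunit and the second most abundant MRPS transcript, had 350 and 448 FPKM against 146 and 156 FPKM (−1.39 ± 0.16). None of the 10 was still called in TPM.

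The most abundant transcript of the whole family, MRPS24, was lower in both TXNDC9-KO libraries but did not reach 2-fold. It had 592 and 741 FPKM in WT and 341 and 373 FPKM in TXNDC9-KO libraries (−0.89 ± 0.17, adjusted p 0.00486 by limma). MRPS28 lay just outside the threshold with 123 and 162 FPKM against 70.0 and 73.6 FPKM (−0.98 ± 0.16). MRPS23 had 73.9 and 87.7 FPKM against 80.1 and 88.6 FPKM (0.07 ± 0.13), and MRPS27, a protein with pentatricopeptide repeats that bind RNA, 69.2 and 65.3 FPKM against 67.5 and 68.9 FPKM (0.02 ± 0.10). The conditions overlapped in both, and both turned negative after centring on the median, to −0.08 and −0.12.

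The symbol does not always tell where a protein sits. MRPS18A, MRPS18B and MRPS18C encode related proteins, of which MRPS18A has been placed in the large subunit and the other two at different sites of the small one. MRPS18A had 124 and 131 FPKM in WT and 61.1 and 69.8 FPKM in TXNDC9-KO libraries (−0.97 ± 0.12), and its exons share 50.9% of their bases with RSPH9 on the other strand, which was at or below 0.496 FPKM. MRPS18B had 159 and 172 FPKM against 105 and 119 FPKM (−0.56 ± 0.12, and 0.12 in TPM), and MRPS18C 34.3 and 56.9 FPKM against 25.7 and 27.8 FPKM (−0.72 ± 0.24). None of the 3 was called, and MRPS18C had the widest gap between its WT libraries. MRPS30, which is also a large subunit protein in the assembled ribosome, had 157 and 173 FPKM in WT and 120 and 121 FPKM in TXNDC9-KO libraries (−0.45 ± 0.11, and 0.23 in TPM). MRPS36 belongs to the oxoglutarate dehydrogenase complex rather than to the ribosome, and its values overlapped, with 27.0 and 36.2 FPKM against 27.8 and 30.1 FPKM (−0.11 ± 0.16, and 0.57 in TPM).

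The balance between MRPL and MRPS transcripts also differed between the conditions. The mean log2 level of MRPL genes exceeded that of MRPS genes by 0.22 and 0.21 in WT and by 0.04 and 0.05 in TXNDC9-KO libraries. The ratio of summed MRPL to summed MRPS FPKM was 1.86 and 1.89 in WT and 1.65 and 1.65 in TXNDC9-KO libraries. The 2 conditions did not overlap in either measure, and the gap between the WT libraries was small beside that between the conditions. Rescaling to TPM leaves the ratio as it is, since both sums are divided by the same total. Per gene, the median log2 fold change was −1.02 for MRPL and −0.89 for MRPS genes, a difference of −0.13. MRPL genes had canonical transcripts with a median of 1175 nt and 50.8% GC, and MRPS genes 1458 nt and 46.6% GC. A loess correction for length and GC content, described below, narrowed the difference to −0.06.

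**Figure D3:**
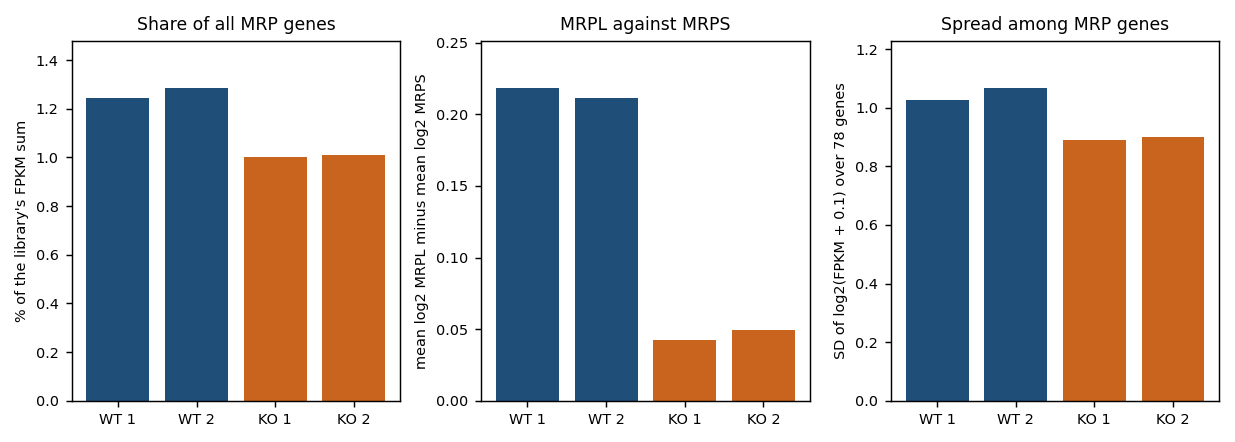
Bars for each of the 4 libraries give the share of mitochondrial ribosomal protein genes in the library's summed FPKM (left, %), the mean log2 level of MRPL minus that of MRPS genes (middle) and the SD of log2(FPKM + 0.1) across the 78 genes (right). Both TXNDC9-KO libraries (orange) are below both WT libraries (blue) in each panel, at 1.003% and 1.01% against 1.24% and 1.29% in the left panel. Axes start at 0.

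Counted by place in the assembled ribosome, which moves MRPS18A and MRPS30 to the large subunit and leaves out MRPS36, 27 of 51 large subunit genes and 10 of 26 small subunit genes were called lower, with medians of −1.02 and −0.91. Genes with a bacterial counterpart had a median of −1.02, with 24 of 46 called lower, and those found only in mitochondria −0.92, with 13 of 31. The smallest change was in the 10 small subunit genes found only in mitochondria, of which 3 were called lower, with a median of −0.62 that became 0.06 in TPM. Over all tested genes 15.3% were called lower, and the median was −0.09, or 0.59 in TPM. After the length and GC correction described below, the median of these 10 genes was −0.45. That of the 21 large subunit genes found only in mitochondria was then −0.48. These are counts beside each other, and the differences between the groups were not tested.

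The genes also became more alike in level. The SD of log2(FPKM + 0.1) over the 78 genes was 1.03 and 1.07 in WT and 0.89 and 0.90 in TXNDC9-KO libraries. Over all tested genes this SD was also lower in TXNDC9-KO, at 2.35 and 2.44 against 2.08 and 2.10. Genes called lower had a median WT level of 156 FPKM and those not called 82.5 FPKM, whereas the medians in TXNDC9-KO cells were 57.1 and 60.9 FPKM. These groups were split by their fall in the same libraries, so a closer match in one condition is partly built in. It is not a separate sign that levels became more alike. The order of the genes was largely kept, with a Spearman correlation of 0.824 between mean WT and mean TXNDC9-KO levels across the 78 genes, beside 0.980 between the WT and 0.985 between the TXNDC9-KO libraries. Across genes these are descriptions, since genes of one library are not independent.

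Transcript length and GC content moved with the change, in the family and in all genes alike. Across the 78 genes, the Spearman correlation of the log2 fold change was 0.472 with the length of the GENCODE canonical transcript and −0.645 with its GC content, and across the 13112 tested genes with a value it was 0.495 and −0.462. The canonical transcripts of the family had a median length of 1242 nt, from 496 nt for MRPL53 to 15557 nt for MRPL42. Genes called lower had a median of 1009 nt and 53.0% GC, and those not called 1550 nt and 44.5% GC. Of the 26 shortest members, up to 999 nt, 18 were called lower, beside 37.8% of other genes of that length. Of the next 26, from 1009 to 1553 nt, 12 were, beside 34.1%. Of the 26 longest, from 1605 nt, 7 were, beside 8.86%. Within the family's 10th to 90th percentiles of length, GC content and mean FPKM together, 19 of 42 family members (45.2%) were called lower and their median change was −0.97 (log2), beside 26.7% of 1234 other genes and a median of −0.66.

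**Figure D4:**
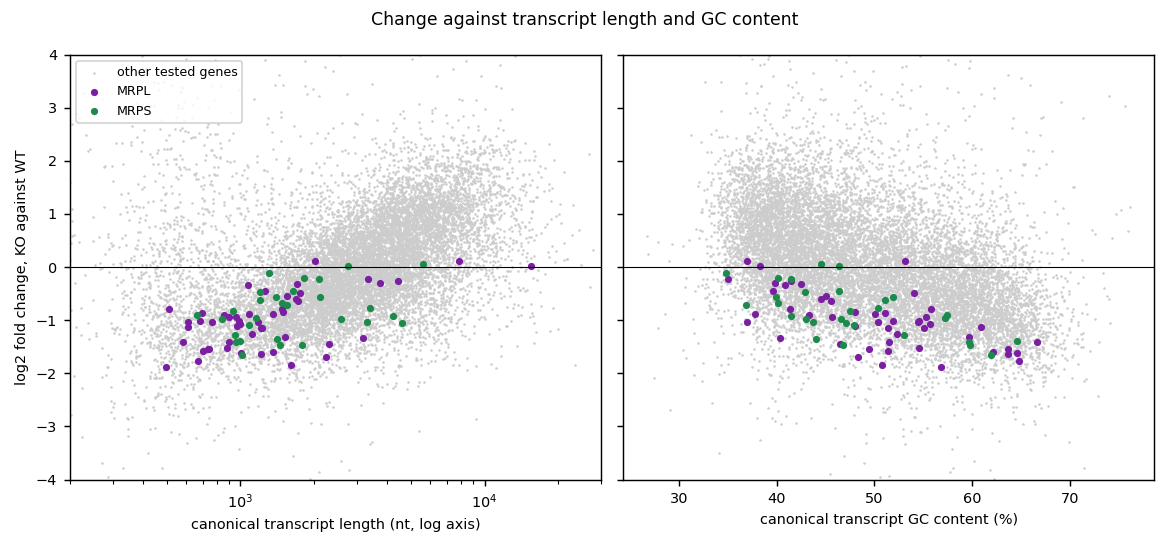
Log2 fold change, TXNDC9-KO against WT, on the log2(FPKM + 0.1) scale, against canonical transcript length in nt on a log axis (left) and against GC content in % (right). Grey points are the tested genes with a length, purple MRPL and green MRPS genes. Genes beyond the vertical axis are not drawn. The grey cloud rises with length and falls with GC content (Spearman 0.495 and −0.462), and the coloured points follow it at its lower side. In TPM all points move up by about 0.68.

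With that loess curve on length and GC content removed from every library, 13 of 78 genes were called lower and 0 higher, beside 7.39% and 6.41% of all tested genes. Of the 13, 8 were MRPL genes (16.3% of 49) and 5 MRPS genes (17.2% of 29), so the larger MRPL share seen without the correction was no longer there, and 11 were also called without the correction. The median became −0.59, beside −0.05 over all tested genes, and 76 of 78 genes were negative. MRPL11, MRPL53 and MRPL57 kept falls of −1.41, −1.27 and −1.55, while MRPL23, the other gene called in TPM, went from −1.76 to −0.95 and was no longer called, MRPS26 went from −1.65 to −0.68 and MRPL4 from −1.64 to −0.62. MRPL42 and MRPL19, whose annotated transcripts are among the longest, went from 0.03 to −1.16 and from 0.12 to −0.93, and MRPL49 rose to 0.51. Lengths are those of the annotated canonical transcript and not of the form these cells used, which was not measured. Whether the relation to length and GC content came from the RNA of the cells or from library preparation was not tested.

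Many of these genes start next to another gene that is read in the opposite direction. Within 1000 bases of the start, 24 pairs with a protein-coding neighbour outside the family were found, and the neighbour was tested in 23. The family member had the lower log2 fold change in 21 of 23 pairs, and in 17 of 23 after the length and GC correction. The medians were −0.91 for the members and −0.14 for the neighbours, which became −0.23 and 0.54 in TPM and −0.42 and −0.24 after the correction. Of the members 9 were called lower, and of the neighbours 4 were called lower and 1 higher. Over all tested genes 15.3% were called lower and 14.2% higher. The neighbours had longer transcripts, with a median of 3192 nt against 1216 nt.

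**Figure D5:**
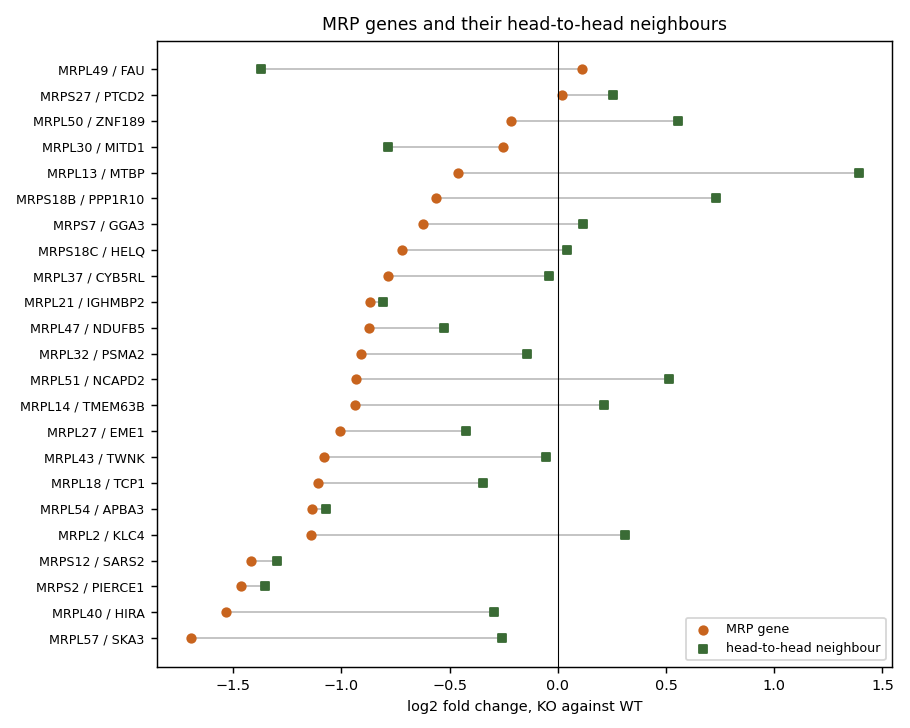
Each row is a mitochondrial ribosomal protein gene (orange circle) with the tested protein-coding neighbour that starts within 1000 bases on the opposite strand (green square), and the horizontal axis gives the log2 fold change, TXNDC9-KO against WT. The circle is to the left of the square in 21 of 23 pairs, and MRPL49 and FAU, at the top, are 1 of the 2 exceptions. In TPM both symbols of every pair move to the right by about 0.68.

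MRPL49 and FAU, which encodes a ribosomal protein of the cytosol, start 187 bases apart. FAU had 739 and 959 FPKM in WT and 315 and 336 FPKM in TXNDC9-KO libraries (−1.37 ± 0.18) and was called lower, while MRPL49 was 0.11. MRPS12 and SARS2, the mitochondrial seryl-tRNA synthetase, start 181 bases apart and were both called lower, at −1.42 and −1.30. SARS2 had 57.3 and 63.2 FPKM against 23.1 and 25.7 FPKM. MRPL13 and MTBP went apart, with −0.46 for MRPL13 and 1.39 ± 0.16 for MTBP, which was called higher. MRPL46 and MRPS11 are a pair within the family whose starts are 320 bases apart on chromosome 15. MRPL46 had 79.1 and 98.0 FPKM against 42.0 and 44.8 FPKM (−1.02, called lower), and MRPS11 86.1 and 108 FPKM against 53.9 and 60.0 FPKM (−0.76, not called). After the length and GC correction the called genes of these pairs were all short of 2-fold. FAU had −0.74, MRPS12 −0.51, SARS2 −0.49, MTBP 0.96 and MRPL46 −0.42.

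Proteins of the mitochondrial ribosome with other symbols went in both directions. Of 5 such genes, 2 were called lower and 1 higher, with a median of −0.92. Over all tested genes 15.3% were called lower and 14.2% higher, with a median of −0.09. GADD45GIP1, a large subunit protein also known for a role in cell-cycle control, had 264 and 356 FPKM in WT and 66.9 and 69.9 FPKM in TXNDC9-KO libraries (−2.16 ± 0.17, limma adjusted p 0.000538), a larger fall than in any of the 78 genes. AURKAIP1, a small subunit protein, had 355 and 454 FPKM against 121 and 126 FPKM (−1.70 ± 0.16). PTCD3, a small subunit protein with pentatricopeptide repeats, had 26.1 and 20.3 FPKM against 51.6 and 54.2 FPKM (1.20 ± 0.14, called higher). The WT and TXNDC9-KO values of these 3 genes were far apart, and all 3 calls held in TPM, whereas after the length and GC correction GADD45GIP1 alone was called.

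Factors that build and serve the ribosome were counted in the same way. Of 26 assembly factors, 4 (15.4%) were called lower and 0 higher, close to the 15.3% called lower over all tested genes, with a median of −0.66. In TPM the counts were 0 lower and 2 higher, and the median was 0.02, beside 3.37%, 33.1% and 0.59 over all tested genes. YBEY, an RNA endonuclease, had 31.4 and 45.0 FPKM in WT and 14.8 and 15.4 FPKM in TXNDC9-KO libraries (−1.31 ± 0.18). MTG1, a GTPase of large subunit assembly, had 55.8 and 67.0 FPKM against 26.7 and 28.7 FPKM (−1.14 ± 0.13). Of 17 mitochondrial translation factors, 4 (23.5%) were called lower and 0 higher, beside 15.3% and 14.2% of all tested genes, with a median of −0.46. In TPM 0 of these 17 were called lower and 3 higher, with a median of 0.22. Over all tested genes the values in TPM were 3.37%, 33.1% and 0.59. SLIRP, which stabilises mitochondrial messenger RNA together with LRPPRC, had 588 and 800 FPKM against 191 and 241 FPKM (−1.68 ± 0.21). Its partner LRPPRC had 54.0 and 70.3 FPKM against 66.6 and 65.5 FPKM (0.10 ± 0.15), and was named after its values were seen. TACO1, an activator of translation of a cytochrome c oxidase subunit, had 56.8 and 65.3 FPKM against 26.7 and 25.9 FPKM (−1.21 ± 0.11).

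Genes of mitochondrial transcription and RNA processing were split, with 3 of 12 called lower, 2 higher and a median of 0.14, beside 15.3% lower and 14.2% higher over all tested genes. In TPM 2 were called lower and 5 higher (median 0.82), beside 3.37% and 33.1% of all tested genes (median 0.59). After the length and GC correction 1 was called each way (median −0.24), beside 7.39% lower and 6.41% higher (median −0.05). SUPV3L1, a helicase that takes part in the degradation of mitochondrial RNA, had 72.1 and 92.6 FPKM in WT and 23.8 and 24.7 FPKM in TXNDC9-KO libraries (−1.75 ± 0.14). POLRMT, the mitochondrial RNA polymerase, had 46.5 and 78.4 FPKM against 17.8 and 19.5 FPKM (−1.69 ± 0.25). TFAM, which packs mitochondrial DNA and starts its transcription, had 19.9 and 17.6 FPKM against 42.7 and 45.8 FPKM (1.24 ± 0.11, called higher). TEFM, the elongation factor of that polymerase, had 9.60 and 11.1 FPKM against 22.1 and 22.1 FPKM (1.09 ± 0.11, called higher). The polymerase and its 2 partners were called in opposite directions here and in TPM. After the correction TEFM alone was called (1.28), while POLRMT had −1.07 and TFAM 0.41, and with median centring TEFM, at 0.95, was not called. TFAM and TEFM were named after their values were seen. Both mitochondrial ribosomal RNA genes, MT-RNR1 and MT-RNR2, were listed at 0 in all 4 libraries, so the RNA part of the particle was not measured.

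Of 9 upstream regulators of mitochondrial biogenesis, 8 were tested, and 1 was called lower and 1 higher, 12.5% each way beside 15.3% and 14.2% of all tested genes. In TPM 0 were lower and 3 higher, beside 3.37% and 33.1% of all tested genes. PPARGC1A, the coactivator that drives mitochondrial gene programmes, had 1.52 and 1.22 FPKM in WT and 4.85 and 5.28 FPKM in TXNDC9-KO libraries (1.82 ± 0.19). Its relative PPRC1 had 34.8 and 40.0 FPKM against 17.3 and 17.6 FPKM (−1.09 ± 0.11). For the factors whose words were searched for in the promoters, the log2 fold change was −0.41 for MYC, 0.05 for NRF1, 0.76 for GABPA and 0.98 for YY1, and none of the 4 was called. In TPM GABPA (1.43) and YY1 (1.66) were called higher, and MYC (0.28) and NRF1 (0.73) were not called. The median of all tested genes in TPM was 0.59. After the length and GC correction the values were −0.60 for MYC, −0.08 for NRF1, −0.07 for GABPA and 0.38 for YY1. None of these factors was called then. These 4 were given because their words were searched for.

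Reads from related sequences could move between genes. Of the 73 pseudogenes with an MRPL or MRPS symbol, 65 were listed at 0 in all libraries and 2, MRPS31P4 and MRPS31P5, averaged above 1 FPKM, while their parent MRPS31 had 16.1 and 19.2 FPKM in WT and 10.7 and 11.3 FPKM in TXNDC9-KO libraries. Exon bases were shared with another gene in 41 of the 78 members, on the same strand in 18, and use of strand in counting is not given in the sources used here. Among the 37 members without shared exon bases, 18 were called lower, and their median was −0.94. In the whole family 47.4% were called lower with a median of −0.97, and over all tested genes 15.3% with −0.09.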

How the data were processed

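Polyadenylated RNA of 2 WT and 2 TXNDC9-KO libraries was sequenced. The authors mapped reads to hg38 with TopHat2 and an Ensembl annotation and deposited an FPKM per gene for every library (Cuffdiff and Cufflinks). Tool versions, the scaling of libraries and strand settings are not given in the sources used here. The deposited table also holds condition averages, fold changes, p-values and q-values of the authors, which were not used. FPKM give no counts, so depth is unknown and intervals or detection floors were not computed.

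The table had 231916 lines, 57979 with values. Identifiers were out of step with symbols, each occurring 4 times, and were put back in order, after which all 78 members matched GENCODE release 44, the source of positions, lengths and GC content. The comparison used log2(FPKM + 0.1) of genes averaging above 1 FPKM, which understates changes of low genes, and limma 3.58.1 (trend in the prior variance, Benjamini-Hochberg over 13246 genes) in R 4.3.3. Calls needed an adjusted p under 0.01 together with 2-fold, the thresholds of the study. Condition was the only term. Both conditions carry replicate numbers 1 and 2, but the deviations of same-numbered libraries were correlated at −0.0904 over the tested genes, and the libraries were treated as unpaired. Alternatives were pseudocounts of 1 and 0.01, no filter or an average above 5 FPKM, TPM, median centring, an adjusted p under 0.05, no trend, a replicate block, leaving out a library, counting by place in the ribosome, and a loess correction (span 0.3) for length and GC content. Steps were tested on simulated data.

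Named were TXNDC9, within MRPL and within MRPS the 5 called genes with the largest falls, the 3 most positive genes and the 2 most abundant, the MRPS18 paralogs, MRPS30, MRPS36, the 2 most changed tested genes of each other list, the mitochondrial rRNAs and a gene on either side of the 2-fold threshold. Other genes were named after their values were seen. Members and lists were chosen with earlier results of these data known, and the grouping by place and origin after the values had arrived. Promoters came from RefSeq (GRCh38.p14). Tables were handled with pandas 2.3.3 and numpy 2.4.6 in Python 3.11.15, and figures drawn with matplotlib 3.10.9.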

Additional observations from a re-analysis of the deposited data

How the results depend on the processing

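Pseudocounts, filters, an adjusted p under 0.05, limma without a trend, median centring, the replicate block and counting by place each left the number of genes called lower within 1.5 times of 37 for the family, and within 1.5 times for MRPL and for MRPS genes. The replicate block gave 37, and it changed no other call to an extent that moved these counts by over 1.5 times. In TPM 4 genes were called lower, 4 MRPL and 0 MRPS, beside 3.37% of all tested genes. The family median was −0.29, beside 0.59 over all tested genes. After the length and GC correction, with or without the replicate block, 13 were called lower, 8 MRPL and 5 MRPS. Without the block 7.39% of all tested genes were. The family median was −0.59, beside −0.05 over all tested genes, and the MRPL minus MRPS difference was −0.061. That difference was −0.11 at a pseudocount of 1. Leaving out 1 library gave 0 to 49 genes called lower, 0 to 33 MRPL and 0 to 16 MRPS, medians from −1.15 to −0.78 and differences from −0.16 to −0.11, where the lone library of a condition was assumed to vary like the other condition. Calls were lost when a TXNDC9-KO library was left out, and the cause was not tested.

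Signs turned for single genes. In TPM, which raised all genes, log2 fold changes were 0.12 for TXNDC9, 0.57 for MRPS36, 0.12 for MRPS18B and 0.23 for MRPS30. With median centring they were −0.021 for MRPL19, −0.033 for MRPL49, −0.12 for MRPL42, −0.077 for MRPS23 and −0.12 for MRPS27. With the length and GC correction, with or without the replicate block, they were −0.93 for MRPL19, −1.16 for MRPL42, −0.56 for MRPS23 and −0.036 for MRPS27. When each library was left out in turn, MRPL42 ranged from −0.026 (without WT replicate 1) to 0.079, MRPS23 from −0.057 (without WT replicate 1; −0.0065 without TXNDC9-KO replicate 2) to 0.19, MRPS27 from −0.021 (without WT replicate 2) to 0.062 and MRPS36 from −0.32 to 0.099 (without WT replicate 2). Among the values of single genes under the alternatives, 446 kept both direction and side of the threshold, 90 kept the direction and lost the call, 11 gained a call and 22 turned. The correction rests on annotated lengths, and FPKM show no depth.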
